A study of Mus musculus with 40 samples.

Results

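The effect of a high-fat diet on the wild-type mouse aorta was examined in 10 libraries, 5 of mice fed HFD and 5 of mice fed the standard diet, out of 20 aortas and 40 libraries of aorta and kidney in the series. The libraries were chosen by their labels alone, WT_Aorta_HFD against WT_Aorta_SD (the standard diet is called SFD here). The wild-type animals carried Tek-cre, a Cre recombinase under the Tie2 promoter that is active in endothelial cells and also in blood-forming cells, but no loxP sites in Egfr, so that both diet groups share the transgene. The other 10 aortas came from EC-EGFR-KO mice (labels EGFR-KO_Aorta_SD and EGFR-KO_Aorta_HFD, called KO here), whose loxP-flanked Egfr is deleted by Tek-cre. These aortas were part of the fit and of a comparison between the genotypes. HFD supplied 60% and SFD 10% of energy as fat. After 7 days on a 1:1 mixture of both chows at an average age of 5 weeks, HFD was fed from 6 weeks of age for 18 weeks. SFD was likewise fed from 6 weeks of age for 18 weeks, and no mixture is recorded for it. Aortas were cleared of adjoining fat and connective tissue by hand and frozen, so that each library is the RNA of a whole vessel wall with whatever perivascular tissue remained.

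Between 17520161 and 23196910 counts fell on genes in 9 of the 10 libraries, and 36419598 in the SFD replicate R-1. The smooth muscle genes that define the tissue were at high levels in every library, with a sum over 12 measured contractile genes of 39905 to 57711 FPM (the unit of the study, counts of a gene per 1000000 counts of the TMM-normalized library). Of 25742 genes with 0 counts in every library, 7724 are all the genes of chromosomes 9, MT, X and Y and of chromosome 8 beyond 97876154, so that Tagln, Cnn1, Cdh5 and Icam1, among others, were not measured. R-1 and the KO SFD replicate R-12 differed by less than sampling noise (their chi-square had a median of 0.0279 per gene, against 0.455 for noise alone and 1.5 to 18.5 in the other 189 pairs of aortas), so that one of the 5 WT SFD values is shared with a library labelled KO. Values without R-1 are given for the genes with the largest differences and for several lists.

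Fat around the aorta is an endocrine tissue. Its adipocytes store lipid under a coat of perilipins and Cidec, and secrete adipokines such as adiponectin (Adipoq), complement factor D or adipsin (Cfd) and resistin (Retn). Around the thoracic aorta the fat is largely of the brown type, in which Ucp1 uncouples respiration to make heat. Cyp2e1 is a cytochrome P450 that oxidizes ethanol, acetone and fatty acids and is known best from hepatocytes, but adipocytes hold it as well.

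Promoters of the genes on which the results turn are given from RefSeq (GRCm38.p6). They run from 250 bases before to 50 after the RefSeq start, in the direction of the gene. Distances are counted from that start, which can differ from the GENCODE gene positions given below. For Cyp2e1 the RefSeq start lies downstream of the GENCODE start at 140763739. In the first set, Cyp2e1 (chr7:140763569-140763868, + strand), Cfd (chr10:79890603-79890902, + strand) and Retn (chr8:3655520-3655819, + strand) are shown because they had the largest differences among the adipocyte genes, and capitals mark the TATA box as TATAAA, the CCAAT box and the nuclear receptor element AGGTCA on either strand. Among 32544 promoters of this length, 13.6% held TATAAA, 37.4% CCAAT and 16.2% AGGTCA. The Cyp2e1 promoter held TATAAA 31 bases and CCAAT, on the opposite strand, 68 and 210 bases before the start, and these letters are not in the Cfd and Retn windows.
Cyp2e1: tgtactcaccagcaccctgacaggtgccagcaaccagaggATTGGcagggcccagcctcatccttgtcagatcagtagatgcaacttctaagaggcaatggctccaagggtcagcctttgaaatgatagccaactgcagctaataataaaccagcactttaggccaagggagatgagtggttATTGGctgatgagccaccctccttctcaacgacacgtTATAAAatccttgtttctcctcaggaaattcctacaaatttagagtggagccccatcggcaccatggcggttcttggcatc
Cfd: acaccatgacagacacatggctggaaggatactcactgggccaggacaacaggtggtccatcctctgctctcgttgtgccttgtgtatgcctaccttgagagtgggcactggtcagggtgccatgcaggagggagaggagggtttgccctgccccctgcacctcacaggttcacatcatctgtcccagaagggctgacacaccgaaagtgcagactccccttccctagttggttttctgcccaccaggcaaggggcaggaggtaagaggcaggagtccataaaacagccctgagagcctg
Retn: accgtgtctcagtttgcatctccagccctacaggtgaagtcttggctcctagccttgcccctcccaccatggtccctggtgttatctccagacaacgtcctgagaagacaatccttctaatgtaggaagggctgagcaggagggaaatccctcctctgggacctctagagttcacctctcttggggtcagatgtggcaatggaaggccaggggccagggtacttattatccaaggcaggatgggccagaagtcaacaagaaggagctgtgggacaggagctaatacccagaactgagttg

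In the second set, the promoters of Ciart (chr3:95882179-95882478, - strand) and Per3 (chr4:151044616-151044915, - strand) are shown because these genes had the largest differences among the clock genes whose unadjusted p was under 0.05. Capitals mark the E-box CACGTG, which the clock activators Arntl and Clock bind, and TTATGTAA, a form of the D-box that Dbp, Tef and Hlf bind, on either strand. CACGTG was found in 7.17% and TTATGTAA in 0.931% of all 32544 promoters. Ciart held 3 E-boxes, 44, 58 and 116 bases before the start, and Per3 held TTATGTAA 158 and 205 bases before it. Of the 16 clock genes described below, 15 had a promoter in the table, and 5 of these held CACGTG (Bhlhe41, Ciart, Cry1, Per1 and Tef).
Ciart: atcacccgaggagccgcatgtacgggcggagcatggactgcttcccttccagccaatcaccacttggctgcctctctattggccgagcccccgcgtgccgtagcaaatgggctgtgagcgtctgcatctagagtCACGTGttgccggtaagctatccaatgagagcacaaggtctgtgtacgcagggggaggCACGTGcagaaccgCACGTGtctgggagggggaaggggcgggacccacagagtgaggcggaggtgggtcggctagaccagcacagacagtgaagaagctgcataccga
Per3: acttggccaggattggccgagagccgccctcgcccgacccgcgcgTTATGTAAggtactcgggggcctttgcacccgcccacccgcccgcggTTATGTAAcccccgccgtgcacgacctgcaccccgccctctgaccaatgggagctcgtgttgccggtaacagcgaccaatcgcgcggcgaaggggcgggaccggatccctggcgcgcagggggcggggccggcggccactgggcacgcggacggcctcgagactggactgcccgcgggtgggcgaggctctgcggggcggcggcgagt

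Of 15122 genes tested, Cyp2e1 alone met the criteria of the study for an effect of HFD (adjusted p under 0.05, fold change over 1.5 and over 5 FPM), which is 0.00661% of the genes. The FPM criterion was read here as a mean over 5 FPM in at least 1 group. By its criteria the study itself reports Cyp2e1, Cfd and Retn as lower under HFD in WT aortas. Cfd and Retn did not meet them in the fit used here. Which edgeR test the study used is not stated in its methods, and the cause of the difference was not tested. Cyp2e1 fell under HFD. A second cytochrome P450 gene, Cyp2f2, was the only other gene with an adjusted p under 0.05 and also fell, but was expressed below the FPM criterion, so that adjusted p alone gave 2 genes or 0.0132%. The test was edgeR's quasi-likelihood test in a fit of all 20 aortas, with Benjamini-Hochberg adjustment over all genes tested. Before adjustment, 394 genes (2.61%) had a p under 0.05, fewer than the 756 that uniform p values would give. Of these 394, 249 (1.65%) had a lower and 145 (0.959%) a higher level under HFD. Such shares of all genes are given here for the fit of all 20 aortas only, not for the alternatives. The median log2 fold change of all genes was 0.01, and 90% lay between -0.55 and 0.33. No overlap between the 5 HFD and the 5 SFD libraries was seen for 41 genes with lower levels (0.271%) and for 21 with higher levels (0.139%). Random assignment of libraries to the diets would give larger shares on average. Absence of overlap, given below for single genes, is therefore a description and not evidence of an effect. Other count tests called more genes: the DESeq2 Wald test 6 and the exact test of edgeR 5, all of them with lower levels under HFD. Beside Cyp2e1, both called Cfd, Retn, Cpxm2 and Pcx, and the DESeq2 Wald test also called Cacna2d3.

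**Figure D1:**
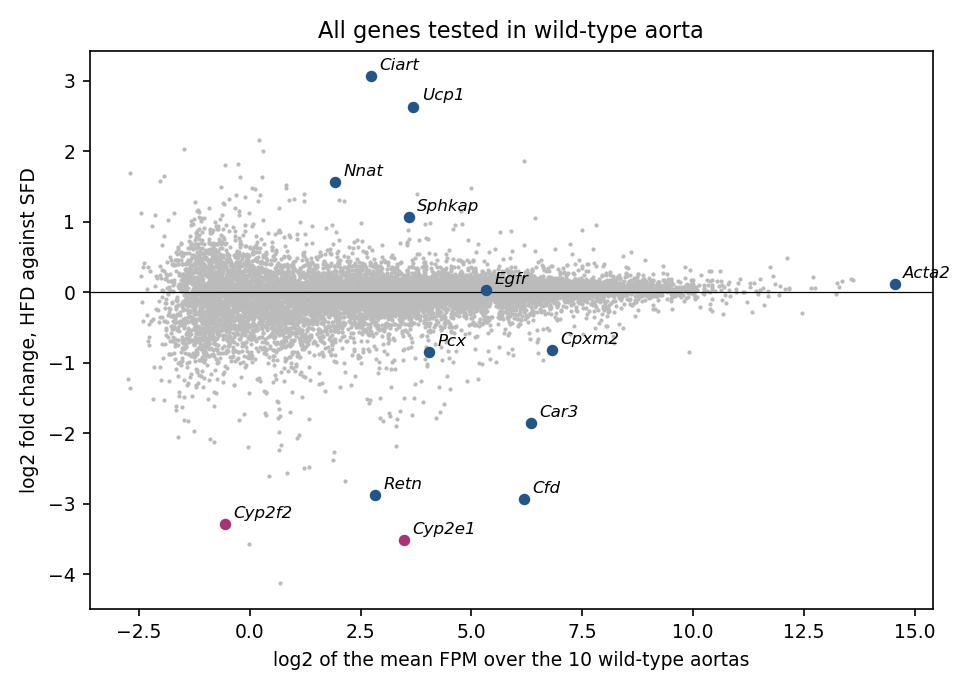
Log2 fold change of HFD against SFD (vertical axis) for each of the 15122 genes tested in wild-type aorta, against the log2 of the mean FPM over the 10 libraries; coloured points are some of the named genes, in purple where the adjusted p was under 0.05. Cyp2e1 (-3.51) and Cyp2f2 (-3.29) are the purple points, and Cfd and Retn lie near them, while Acta2, the most abundant of the smooth muscle genes, and Egfr lie near 0.

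Cyp2e1 (ENSMUSG00000025479, chromosome 7, 140763739 to 140774987, + strand, GRCm38) was at 11.6, 32.1, 22.8, 27 and 9.26 FPM in the SFD replicates R-1 to R-5 and at 2.01, 0.825, 2.27, 3.13 and 0.702 FPM in the HFD replicates R-6 to R-10. The groups did not overlap, and the lowest SFD library lay above the highest HFD library. The mean fell from 20.5 ± 9.83 to 1.79 ± 1.02 FPM (SD, n = 5 each), a ratio of 11.5 and a log2 fold change of -3.51 ± 0.55 (SE, adjusted p = 0.0286, edgeR). The counts behind these values were 211 to 730 per library under SFD and 12 to 56 under HFD. Its adjusted p ranged from 8.92e-08 (DESeq2 Wald test) to 0.167 over the alternatives: it lay between 0.0553 and 0.167 in 8 of 10 fits that each left out a single WT library (R-2, R-3, R-4 or any of R-6 to R-10), and it was 0.0954 in the fit of the WT aortas alone and 0.0588 and 0.0879 with other filters on low counts. The fold change itself stayed between -3.81 and -2.71, and was -3.66 without R-1.

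Cyp2f2 (ENSMUSG00000052974, chromosome 7, 27119909 to 27133660), an enzyme known from the airway epithelium and liver, was near the limit of detection. It was at 0.731, 1.19, 1.74, 1.62 and 0.922 FPM under SFD and at 0.201, 0.165, 0.117, 0.0559 and 0.0585 FPM under HFD, which are 21 to 34 and 1 to 4 counts per library. The groups did not overlap, and the log2 fold change was -3.29 ± 0.47 (SE, adjusted p = 0.0179, edgeR). Without R-1 it was -3.43 with an adjusted p of 0.0164. Leaving out 6 of the 10 WT libraries in turn brought the adjusted p above 0.05, to 0.118 at most, and in the fit of the WT aortas alone it was 0.0954.

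Among genes above 5 FPM with lower levels under HFD, the next lowest log2 fold changes were those of the secreted adipocyte proteins Cfd and Retn. Cfd (ENSMUSG00000061780, chromosome 10, 79890853 to 79892655), the protease that starts the alternative complement pathway, was at 104, 233, 123, 144 and 43 FPM under SFD and at 29.6, 10.1, 24.8, 18.4 and 1.64 FPM under HFD. All SFD libraries lay above all HFD libraries. The means were 129 ± 69.2 and 16.9 ± 11.2 FPM (SD, n = 5), a ratio of 7.65 and a log2 fold change of -2.93 ± 0.61 (SE), with an adjusted p of 0.244 in the edgeR quasi-likelihood test, 0.00502 in its exact test and 5.71e-04 in the DESeq2 Wald test. Retn (ENSMUSG00000012705, chromosome 8, 3655770 to 3660110), the hormone resistin, was at 8.21, 19.6, 12, 18.9 and 3.47 FPM under SFD and at 1.76, 1.1, 2.22, 3.24 and 0.117 FPM under HFD. Its groups did not overlap either, although R-5 (SFD) and R-9 (HFD) lay close to each other. The log2 fold change was -2.87 ± 0.59 (SE, adjusted p = 0.244, 0.00628 in the exact test and 0.00107 in the DESeq2 Wald test). Without R-1 the values were -3 for Cfd and -2.99 for Retn.

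**Figure D2:**
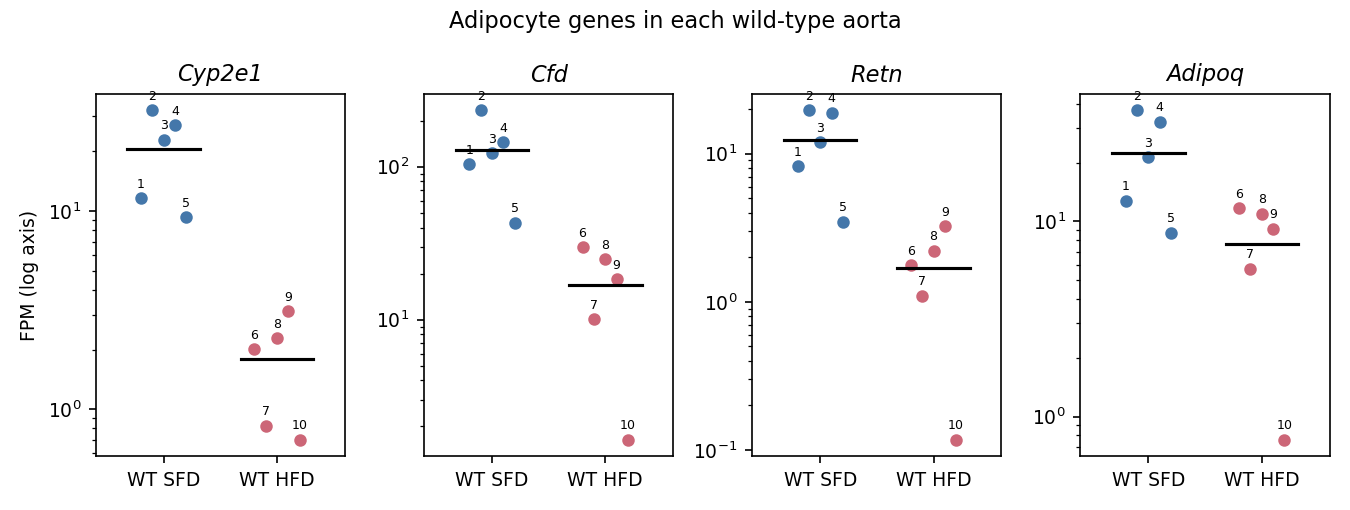
FPM of Cyp2e1, Cfd, Retn and Adipoq in each wild-type aorta on log axes; each point is a library, numbered by its replicate, and the horizontal lines are means of 5. The SFD and HFD points of Cyp2e1, Cfd and Retn do not overlap, those of Adipoq do, and R-10 is the lowest HFD library in all 4 genes.

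A list of 14 secreted and metabolic adipocyte genes, of which 13 were tested and Agt was not measured, had a median log2 fold change of -1.30 against 0.01 for all genes, and of -1.33 without R-1. Of the 13, 1 was called (Cyp2e1). An unadjusted p under 0.05 was reached by 7 with lower and 1 with higher levels under HFD, 61.5% of the list against 2.61% of all genes. The list holds Cyp2e1, Cfd and Retn because the study names them, so that its count is not independent evidence of a direction. Car3, a carbonic anhydrase abundant in fat, was at 81.2, 188, 132, 168 and 63.9 FPM under SFD and at 45.6, 11.4, 42.5, 67.5 and 7.61 FPM under HFD, and only R-5 and R-9 crossed between the groups. The log2 fold changes of Car3 (-1.86), the acute phase protein Orm1 (-1.97) and the carboxylesterases Ces1d (-0.99) and Ces1f (-1.72) had adjusted p values of 0.876 to 1 in edgeR. Nnat, which encodes neuronatin, had the opposite sign with 1.93 ± 0.86 against 5.65 ± 3.47 FPM and a log2 fold change of 1.56. Rbp4, the retinol carrier and the most abundant of the list, was at 225 ± 49.1 and 243 ± 79.3 FPM.

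A core adipocyte list holds genes of fat storage together with the hormone genes Adipoq and Lep. Its 14 genes, all tested, had a median log2 fold change of -0.22, which was -0.31 without R-1, -0.43 without R-8 and -0.09 without R-3, and the difference from the secreted and metabolic list was not tested. In all, 3 of them (21.4%, against 2.61% of all genes) had an unadjusted p under 0.05, all with lower levels under HFD. Adiponectin itself (Adipoq) was at 12.8, 37, 21.3, 32.5 and 8.73 FPM under SFD and at 11.7, 5.72, 11, 9.16 and 0.761 FPM under HFD, with a log2 fold change of -1.55 ± 0.52 (SE, adjusted p = 1, edgeR). Its groups overlapped, since R-5 under SFD was lower than 3 of the 5 HFD libraries. The lipid droplet protein gene Cidec had a log2 fold change of -1.30 and Lpl, the lipase that releases fatty acids from circulating triglycerides, one of -0.71 (112 ± 26.8 against 68.2 ± 16.1 FPM). Plin4, the most abundant of the list, was at 447 ± 53.6 and 476 ± 58.5 FPM. The summed level of the core list ran from 940 to 1223 FPM under SFD and from 927 to 1279 FPM under HFD and so overlapped, with medians of 1195 and 1031 FPM. The lowest SFD sum was that of R-1, the next that of R-5 (1040 FPM), and the highest HFD sum was that of R-8. Plin4, Fabp4, Acsl1 and Lpl are also known from muscle or endothelial cells, and they carry most of that sum. In such whole-tissue RNA, fewer adipocytes and less RNA of a gene per adipocyte cannot be told apart, and the amount of fat left on each vessel was not measured.

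Levels were therefore also set against Adipoq, a product known almost only from adipocytes, library by library. Per FPM of Adipoq, Cfd was at 8.13, 6.30, 5.77, 4.44 and 4.92 under SFD and at 2.53, 1.76, 2.26, 2.01 and 2.15 under HFD, without overlap. Retn per FPM of Adipoq was between 0.397 and 0.643 under SFD and between 0.151 and 0.354 under HFD, again without overlap. For Cyp2e1 the ratio was 0.831 to 1.07 in the SFD libraries and 0.144 to 0.341 in R-6 to R-9, but 0.923 in R-10, where Adipoq rested on 13 counts and Cyp2e1 on 12. Per 100 FPM of the core list sum, Cyp2e1 (0.89 to 2.62 under SFD and 0.073 to 0.338 under HFD) and Cfd (4.13 to 19.1 and 0.17 to 2.83) did not overlap, while Retn did (0.333 to 1.6 and 0.0122 to 0.35), since R-5 lay below R-9. The ratios of Car3 to Adipoq overlapped, with 5.09 to 7.31 under SFD and 1.99 to 10 under HFD. These ratios are descriptions without a test. With the mean log2 level of the core list as a covariate in the edgeR fit, the log2 fold changes were -2.71 for Cyp2e1 (adjusted p = 0.0361), -2.78 for Cyp2f2 (0.0361), -2.12 for Cfd (0.0613) and -1.96 for Retn (0.345), and the median of the secreted list was -0.67. The covariate also moved the medians of other lists described below, to -0.26 for the matrix genes (4 members with an unadjusted p under 0.05), -0.20 for vascular tone (2 members), -0.24 for sterol synthesis (1 member), 0.18 for the respiratory chain (1 member), -0.54 for macrophage markers (4 members), -0.21 for insulin and IGF signalling (1 member) and 0.06 for the immediate-early genes (0 members). The clock median was 0.70 with 1 such member. Further medians were -0.088 for the chondrocyte-like list (3 members, all lower), -0.095 for the EGF receptor family, -0.034 for vascular inflammation (1 member, lower) and 0.203 for cardiac genes. The core list had 2 such members with higher and 3 with lower levels, and the brown adipocyte list 2 and 1. The share of all genes with an unadjusted p under 0.05 in this fit is not given here, so these counts cannot be set against it.

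Brown adipocyte genes varied widely between animals. Of 12 listed, 9 were tested and none was called. Their median log2 fold change was 0.07 (0.23 without R-2). Ucp1 and Cox7a1, a subunit of cytochrome c oxidase, had an unadjusted p under 0.05 with higher levels under HFD. These 2 were 22.2% of the list, against 2.61% of all genes. Ucp1 was at 7.85, 4.48, 4.6, 0.143 and 0.658 FPM under SFD and at 20.3, 11.3, 74.5, 4.02 and 1.23 FPM under HFD. The HFD libraries R-6, R-7 and R-8 lay above all SFD libraries, while R-9 and R-10 lay within their range. The log2 fold change of Ucp1 was 2.63 ± 1.01 (SE, adjusted p = 1, edgeR), and 1.37 without R-8. Cox7a1 was at 2.49 ± 1.33 and 6.18 ± 5.63 FPM and had a log2 fold change of 1.30, and 0.67 without R-8. Without R-8 neither of them had an unadjusted p under 0.05. Cidea, which coats lipid droplets in brown fat, was at 20.5 and 17.2 FPM, and Prdm16, the most abundant of the list, at 106 ± 24.4 and 111 ± 58.5 FPM.

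**Figure D3:**
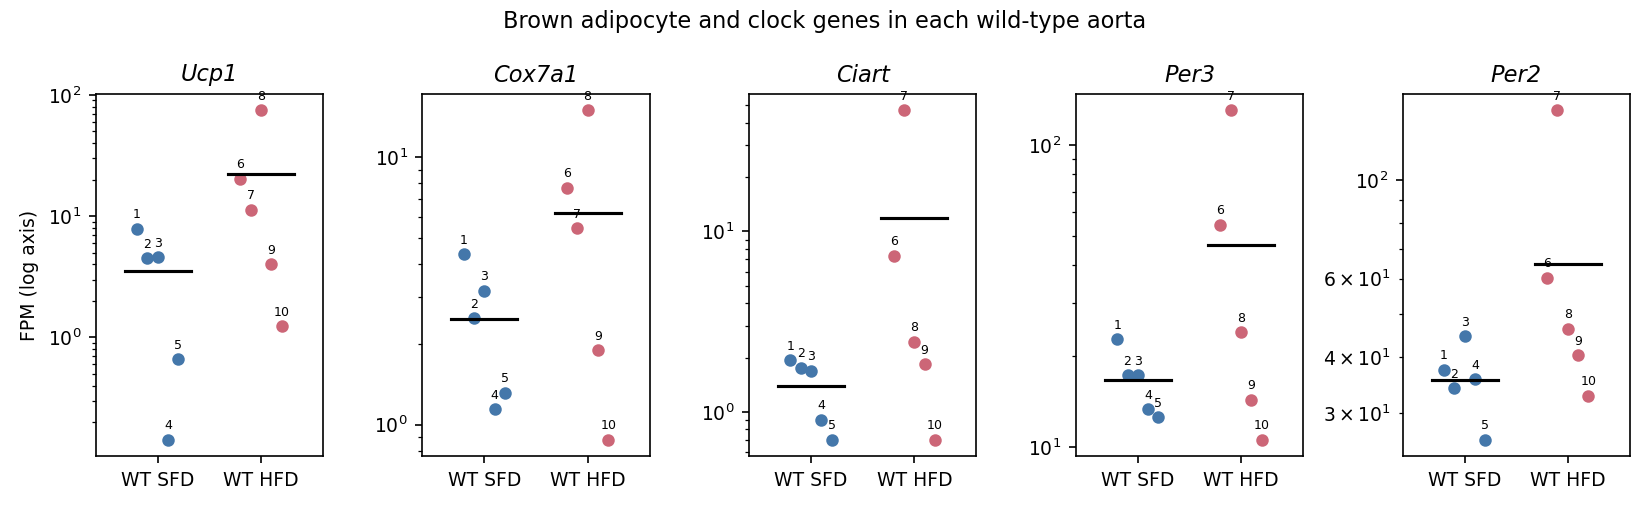
FPM of the brown adipocyte genes Ucp1 and Cox7a1 and of the clock genes Ciart, Per3 and Per2 in each wild-type aorta on log axes; each point is a library, numbered by its replicate, and the horizontal lines are means of 5. R-8 is the highest library for Ucp1 and Cox7a1 and R-7 for the clock genes, and R-9 and R-10 do not exceed the highest SFD library in any of the 5 genes.

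Differences in genes of lipid synthesis were mostly small and of one sign. All 12 tested genes of fatty acid synthesis had negative log2 fold changes (47.2% of all genes did), with a median of -0.22. An unadjusted p under 0.05 was reached by 4 of them (33.3%, against 2.61% of all genes), while none was called. The median was -0.14 without R-9. Fasn, the fatty acid synthase, was at 135, 117, 130, 160 and 139 FPM under SFD and at 86.4, 60.2, 113, 53.7 and 78.9 FPM under HFD, so that the groups did not overlap. Its log2 fold change was -0.80 ± 0.19 (SE, adjusted p = 0.755, edgeR). Scd1, which makes monounsaturated fatty acids, had a log2 fold change of -0.70 (325 ± 83.9 against 200 ± 64.2 FPM), Thrsp, a lipogenic nuclear protein, one of -1.19 and Acss2, which activates acetate, one of -0.35. Srebf1, the transcription factor of this pathway, was at 96.2 and 94.9 FPM. Pcx, the pyruvate carboxylase that refills the citrate cycle and feeds lipogenesis, was at 21, 21.7, 23, 23.5 and 16.9 FPM under SFD and at 11.9, 10.6, 14.2, 11.2 and 10.9 FPM under HFD. The groups of Pcx did not overlap, and its log2 fold change was -0.85 ± 0.17 (SE, adjusted p = 0.238, and called by the exact and the DESeq2 test and without R-12).

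Sterol synthesis, fatty acid oxidation and respiratory chain genes gave no call. Their medians were -0.09 over 14 sterol genes, 0.04 over 19 oxidation genes and 0.06 over 15 respiratory genes, and no member of these lists had an unadjusted p under 0.05. The sterol median ran from -0.20 without R-10 to -0.03 without R-9 and was -0.04 without R-1, and 1 member had an unadjusted p under 0.05 without R-3 or R-6. Among the sterol genes Insig1, which holds back the sterol sensor, had the largest absolute log2 fold change (-0.35, and -0.18 without R-1), and Srebf2 was the most abundant at 129 ± 23.4 and 123 ± 32.3 FPM. Hadha, of the mitochondrial trifunctional protein, was at 163 ± 21.9 and 169 ± 24.3 FPM, with a 95% interval of its log2 fold change of -0.19 to 0.29. Ppara, the fatty acid sensor, was at 1.64 ± 1.16 and 2.04 ± 1.80 FPM. Atp5b, of the ATP synthase, had an interval of -0.22 to 0.33, and the largest difference among the respiratory genes was 0.21 for Atp5o. Leaving out single WT libraries moved the value of Atp5o to between 0.0766 and 0.375.

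**Figure D4:**
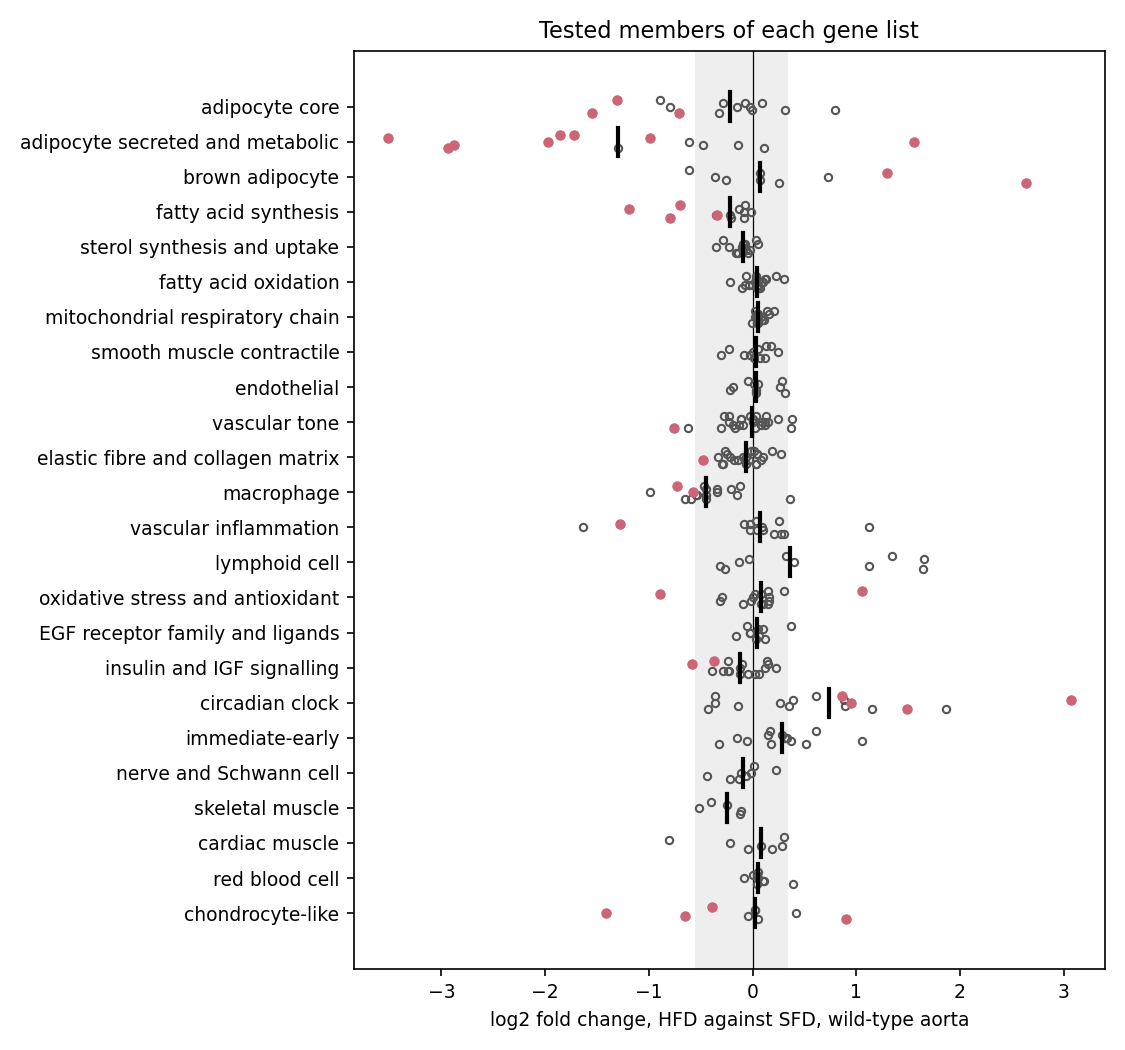
Log2 fold change of HFD against SFD in wild-type aorta for each tested member of 24 gene lists; filled points have an unadjusted p under 0.05, black bars are list medians and the grey band holds 90% of all genes tested. The list of secreted and metabolic adipocyte genes has the lowest median (-1.30) and the clock list the highest (0.74), while the lists of smooth muscle, endothelium and vascular tone centre on 0.

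Medians near 0 depended on single animals. Of 25 gene lists, 15 had a median, between -0.12 and 0.08, that changed sign when single WT libraries were left out, and the other 10 kept their sign.

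None of the listed genes of smooth muscle, endothelium, vascular tone and matrix was called. Medians were 0.04 over 12 contractile smooth muscle genes, 0.03 over 10 endothelial genes, -0.01 over 26 genes of vascular tone and -0.06 over 23 genes of elastic fibres and collagens. Acta2, the smooth muscle actin, was at 22938 ± 5031 and 24875 ± 4564 FPM, with a 95% interval of the log2 fold change of -0.30 to 0.54. Myh11, the smooth muscle myosin, had a narrower interval of -0.26 to 0.22, and Myocd, the coactivator of contractile genes, a wide one of -1.67 to 1.05. Pecam1 (interval -0.77 to 0.83) and Nos3, the endothelial nitric oxide synthase (37 ± 14.1 against 45.9 ± 22.3 FPM, interval -0.44 to 1.06, log2 fold change 0.31, and 0.08 without R-9), varied more, and the summed endothelial level ran from 414 to 1566 FPM under SFD and from 484 to 1804 FPM under HFD. The endothelial median ran from -0.20 without R-9 to 0.21 without R-8 and was 0.18 without R-1, and that of the tone genes ran from -0.15 without R-10 to 0.13 without R-5. The smooth muscle median ran from -0.04 without R-4 to 0.13 without R-9, and that of the matrix genes from -0.19 without R-10 to 0.05 without R-5. Ptgis, the prostacyclin synthase, was at 894 ± 134 and 974 ± 89.5 FPM. Agtr1a, an angiotensin II receptor, was the only tone gene with an unadjusted p under 0.05 (3.85% of the list, against 2.61% of all genes). It was at 2.21 ± 0.85 and 1.31 ± 0.40 FPM (log2 fold change -0.75, adjusted p = 1, edgeR). No tone gene had an unadjusted p under 0.05 without R-4, R-5, R-6 or R-7.

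Of the matrix genes, elastin (Eln) was at 6093, 5659, 5641, 6668 and 6892 FPM under SFD and at 7140, 2360, 4727, 5294 and 5723 FPM under HFD, with R-7 far below the others and an interval of -0.72 to 0.13. Mfap5, a microfibril glycoprotein that is also abundant in adventitial fibroblasts, was at 391, 287, 287, 290 and 305 FPM under SFD and at 265, 257, 207, 203 and 185 FPM under HFD. Its groups did not overlap, and its log2 fold change was -0.48 ± 0.14 (SE, adjusted p = 1, edgeR). Cpxm2, a catalytically inactive carboxypeptidase-like protein, had no overlap either, with 143 ± 36.9 and 80.9 ± 8.55 FPM and a log2 fold change of -0.82 ± 0.16 (SE). Its adjusted p was 0.212, the smallest after Cyp2f2 and Cyp2e1, and it was called in the exact and DESeq2 tests and without R-3. Comp, a cartilage and tendon matrix protein, was at 112 ± 21.4 and 70.8 ± 10.5 FPM without overlap (log2 fold change -0.66, adjusted p = 0.876). In the list of chondrocyte-like genes 4 of 9 tested members had an unadjusted p under 0.05 (against 2.61% of all genes), in both directions, with Chad (-1.41), Comp and Fmod (-0.39) lower and Acan, the core protein of aggrecan (0.90), higher under HFD. Acan was at 0.49 without R-10 and Fmod at -0.20 without R-5, no member with a higher level had an unadjusted p under 0.05 without R-1, R-2, R-4 or R-10, and only 1 with a lower level did without R-5 or R-8. Cytl1 was the most abundant of them at 381 ± 173 and 387 ± 207 FPM.

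Most macrophage markers had negative differences. Of 17 tested, 16 had a negative log2 fold change (47.2% of all genes did), and the list median was -0.45. None was called, and 2 had an unadjusted p under 0.05 (2.61% of all genes did), Csf1r (69.1 ± 24 against 46.5 ± 6.18 FPM, log2 fold change -0.57) and the Fc receptor gene Fcgr1 (-0.73). That number was 1 without R-1, R-4, R-5, R-8 or R-10, 3 without R-3 or R-6, 4 without R-2 and 5 in the fit of the WT aortas alone. Summed over the list, the SFD libraries stood at 846, 505, 520, 831 and 816 FPM and the HFD libraries at 641, 578, 499, 447 and 420 FPM. Here 3 SFD libraries lay above all HFD libraries, and R-2 and R-3 lay among them. Lyz2, the lysozyme gene, was the most abundant at 220 ± 58.4 and 146 ± 26.2 FPM, Itgax had the largest absolute log2 fold change (-0.99), and the lipopolysaccharide coreceptor Cd14 did not overlap between the groups, at 8.09 to 14.7 FPM under SFD and 6.9 to 8.05 FPM under HFD.

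Inflammatory genes of the vessel wall gave a median of 0.07 over 14 tested, which ran from -0.08 without R-3 to 0.27 without R-8. Vcam1, the adhesion molecule for leukocytes, was at 73.7 ± 25.7 and 90.7 ± 26.2 FPM. Nlrp3, an inflammasome sensor, was the only member with an unadjusted p under 0.05 (7.14% of the list, against 2.61% of all genes). It was at 0.634 to 1.36 FPM under SFD and 0.22 to 0.527 FPM under HFD without overlap (log2 fold change -1.28, adjusted p = 1, edgeR). Cxcl10 had the largest absolute value (-1.63, and -2.59 without R-9) at levels of 0.53 and 0.17 FPM. Il6, Tnf and Lcn2 did not pass the filter on low counts. The 10 tested lymphoid genes had a median of 0.36 at summed levels of 3.54 to 7.9 FPM under SFD and 2.34 to 16.6 FPM under HFD, with Ccr7 (1.65) and Cd79a (1.64) differing most and no unadjusted p under 0.05. This median rested on single libraries, with 0.91 without R-1 and 0.09 without R-6. In the fit of the WT aortas alone, where 5 members passed the filter, it was 1.13. Of these 5, 2 had an unadjusted p under 0.05 with higher levels under HFD. The share of all genes in that fit is not given here, so this count cannot be set against it.

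Among 16 antioxidant and oxidative stress genes the median was 0.08. Gsta3, a glutathione transferase, was at 6.38 ± 2.06 and 3.44 ± 0.70 FPM (log2 fold change -0.89), and Nnt, the mitochondrial transhydrogenase, at 0.211 to 0.395 FPM under SFD and 0.559 to 0.705 FPM under HFD without overlap (log2 fold change 1.06 ± 0.34 SE), both with an adjusted p of 1. Nnt was near the limit of detection, at 0.705 FPM at most in these libraries. The study mentions an Nnt mutation as a possible cause of differences between the background strains of its mouse lines. Whether the transcripts counted here encode a working enzyme was not tested. Sod3, the extracellular superoxide dismutase and the most abundant of the list, was at 796 ± 79.4 and 881 ± 134 FPM. Genes of insulin and IGF signalling had a median of -0.12 over 17, with Igf1 (46.9 ± 9.73 against 36.3 ± 3.78 FPM, log2 fold change -0.37) and Igfbp3 (-0.59) at an unadjusted p under 0.05 and Igfbp5 the most abundant at 931 ± 447 and 855 ± 390 FPM. This median was 0.10 without R-5, and no member had an unadjusted p under 0.05 without R-5 or R-7, while 1 did without R-1, R-4, R-6 or R-8 and 3 did without R-3. With all libraries the 2 members were 11.8% of the list, against 2.61% of all genes. Egfr, the receptor that the other genotype of the study lacks in endothelium, was at 39.6 ± 8.93 FPM under SFD and 40.5 ± 6.36 FPM under HFD (95% interval of the log2 fold change -0.27 to 0.34). Over 10 genes of the EGF receptor family and its ligands and regulators the median was 0.04, none had an unadjusted p under 0.05, Errfi1 was the most abundant (98.1 and 94.4 FPM) and Egf had the largest difference (0.37, and 0.19 without R-6).

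Clock genes were at high levels in single animals. The 16 genes of the list, all tested, had a median log2 fold change of 0.74, and 4 of them (25%, against 2.61% of all genes) had an unadjusted p under 0.05 with higher levels under HFD, while none was called. Ciart, a repressor of Clock and Arntl, was at 1.94, 1.76, 1.69, 0.906 and 0.702 FPM under SFD and at 7.35, 46.8, 2.45, 1.84 and 0.702 FPM under HFD. R-7, and to a lesser degree R-6, stood above all others, and R-9 and R-10 were within the SFD range. Per3 followed the same order of HFD libraries, with 54.4, 130, 24, 14.4 and 10.6 FPM against 12.6 to 22.8 FPM under SFD. Log2 fold changes were 3.07 ± 1.09 (SE) for Ciart, 1.49 for Per3, 0.86 for Per2 and 0.95 for Hlf, all with an adjusted p of 1 in edgeR. Arntl, whose transcript runs in opposite phase to these in the daily cycle, was at 45.8 and 34 FPM. Without R-9 or R-10 the number with an unadjusted p under 0.05 was 8, and without R-4 it was 2. Without R-7 the median of the list was 0.30 and no member had an unadjusted p under 0.05, with 1.14 for Ciart, 0.63 for Per3, 0.34 for Per2, 0.23 for Hlf and 0.35 for Tef. The summed red blood cell genes followed the same order of HFD libraries as Ciart, with 44674 FPM in R-7, 16384 in R-6, 9035 in R-8, 5090 in R-9 and 2447 in R-10, and among the KO aortas R-11 (80331 FPM) and R-16 (61264 FPM) were highest in that sum and in Ciart. Under SFD the red blood cell sum was highest in R-2 (30687 FPM), where Ciart was at 1.76 FPM, and its part in the clock values was not tested. Tef, the most abundant clock gene, was at 127 ± 35.3 and 235 ± 179 FPM. The time of day at which tissues were taken is not given in the sources used here, and its part in these values was not tested. The 13 immediate-early genes had a median of 0.28 and no unadjusted p under 0.05, with Fos at 63.6 to 547 FPM under SFD and 180 to 872 FPM under HFD and Fosb differing most (1.05, and 0.33 without R-9). Their median was 0.01 without R-9, 0.08 without R-2 and 0.59 without R-5.

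Of the remaining protein-coding genes above 5 FPM whose groups did not overlap at a fold change over 1.5, Sphkap, an anchor of protein kinase A, was the only one with a higher level under HFD. It was at 6.22, 6.59, 9.62, 11.8 and 4.61 FPM under SFD and at 12.9, 14.2, 13.8, 24.4 and 16.1 FPM under HFD (log2 fold change 1.07 ± 0.38 SE, adjusted p = 1, edgeR). Lower levels were seen for Cacna2d3, a calcium channel subunit (8.74 ± 1.75 against 5.14 ± 0.42 FPM, log2 fold change -0.76 ± 0.15 SE, adjusted p = 0.238), for the myeloid receptor gene Cd300ld (-0.80) and for Mme, the peptidase neprilysin (-0.82, and -0.53 without R-5).

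Markers of other tissues that could adhere to the vessel gave no called gene. Skeletal muscle genes summed to 6.4 to 13.2 FPM under SFD and 4.74 to 10.1 FPM under HFD, with Tnnt3 the most abundant (-0.52) and 6 of 12 below the filter. Mesothelial genes summed to 14.1 to 28.5 and 12.9 to 28.1 FPM, of which only Krt18 passed the filter (-0.09) while Msln and Upk3b did not. Nerve and Schwann cell genes had a median of -0.09 (Pmp22 at 306 and 283 FPM, Cdh19 at -0.44), and cardiac genes one of 0.08 (Ryr2 at 59 and 72.6 FPM, Actc1 at -0.80, and at -0.49 without R-3), which was -0.28 without R-7 and 0.22 without R-3, each with 1 member at an unadjusted p under 0.05, lower under HFD without R-7 and higher without R-3. Red blood cell genes had a median of 0.05, which was -0.82 without R-7, 0.49 without R-2 and 0.19 without R-1, and the widest spread of these sums, with a sum of 2202 to 30687 FPM under SFD and 2447 to 44674 FPM under HFD, of which Hba-a1 made up 4499 ± 3679 and 4643 ± 5006 FPM. With all libraries, none of these lists had a member with an unadjusted p under 0.05. Pmp22 made up most of the summed nerve level and Ryr2 a large part of the summed cardiac level. Th, Dbh, Myh7 and Nppa of these lists did not pass the filter. The nerve and cardiac levels therefore need not stand for adhering tissue.

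The same diets were fed to EC-EGFR-KO mice, whose loxP-flanked Egfr is deleted by Tek-cre, and the difference between the genotypes in the effect of HFD was tested as an interaction. In the edgeR test the interaction had an adjusted p under 0.05 in 0 of 15122 genes (0%), as in the DESeq2 Wald test (0), and 127 (0.84%) had an unadjusted p under 0.05. Egfr was at 44 ± 5.70 and 44.5 ± 6.58 FPM in KO aortas under SFD and HFD, so that its level in the whole vessel wall did not separate the genotypes. Cyp2e1 was at 6.18, 11.4, 4.3, 16.4 and 3.01 FPM in the KO SFD replicates R-11 to R-15 and at 0.328, 1.66, 1.96, 0.693 and 0.987 FPM in the KO HFD replicates R-16 to R-20, again without overlap. Its log2 fold change was -2.85 ± 0.55 (SE) in KO (adjusted p = 0.752, edgeR), -2.70 without R-12, against -3.51 in WT, and the difference between the genotypes was 0.66 ± 0.74 (SE, adjusted p = 1). The study reports Cyp2e1 as lower under HFD in KO aortas too, while no gene met its criteria there in the fit used here. Cfd had a log2 fold change of -1.94 and Retn one of -1.41 in KO, which were -1.40 and -0.80 without R-12. For Cyp2f2, KO aortas stood at 0.457 ± 0.24 and 0.386 ± 0.17 FPM with a log2 fold change of -0.25 (0.0035 without R-12), and the difference from WT was 3.03 ± 0.64 (SE, adjusted p = 1). For Ucp1 the KO value was 0.18 (0.53 without R-12) and for Ciart -0.16 (-0.39 without R-12), against 2.63 and 3.07 in WT. Neither difference between the genotypes passed the test (adjusted p = 1). Among the KO aortas Ciart was at 20.5 FPM in R-11 (SFD) and at 11.5 FPM in R-16 (HFD), the highest of each group, and R-16 also stood apart in the macrophage sum, at 2658 FPM where the other KO HFD libraries had 580 to 926 FPM.

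**Figure D5:**
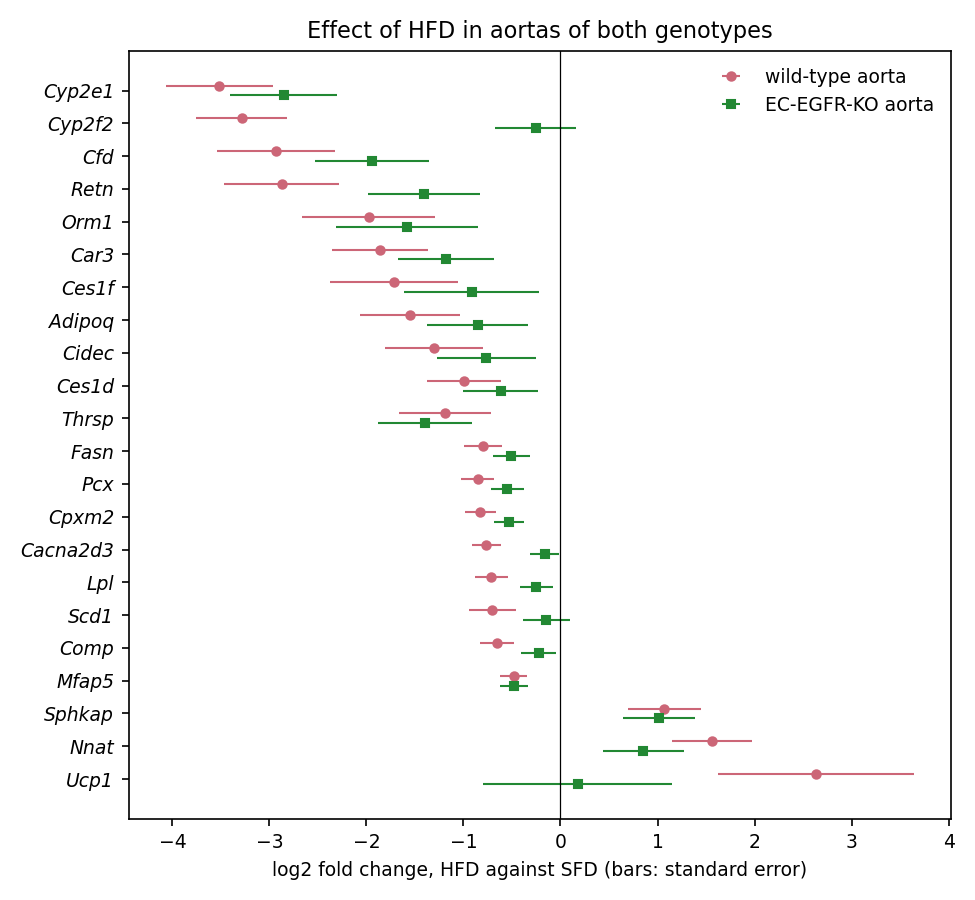
Log2 fold change of HFD against SFD with its standard error for 22 named genes in wild-type (circles) and EC-EGFR-KO aortas (squares), 5 libraries a group. Cyp2e1 lies at -3.51 and -2.85 and Cfd at -2.93 and -1.94, while the values of Cyp2f2 lie farther apart at -3.29 and -0.25; 0 of 15122 genes passed the test of the difference between the genotypes.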

How the data were processed

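RNA of mouse aortas was sequenced, and the authors deposited raw counts of reads per gene for 55335 genes, without normalization. The submitters' processing notes name HISAT2 2.1.0 and featureCounts with mm10, while the methods name TopHat2 as aligner; how strand and multiply mapped reads were treated is not given in the sources used here, so that paralogs (Hba-a1, Ces1d, Ces1f, the Cyp2 genes) and overlapping genes are uncertain. Gene positions are those of GENCODE M21, which matched 55154 IDs. Libraries were grouped by their labels. Counts of 20 aortas were normalized by TMM and filtered with filterByExpr, and fitted with edgeR 4.0.16 (R 4.3.3), quasi-likelihood, robust. Alternatives were DESeq2 1.42.0 and its size factors, the exact test, other filters, a fit that was not robust, a covariate from the core adipocyte list (mean log2 of FPM + 1), fits without KO libraries or without R-12, and leaving out each WT library. Intervals are 95% intervals of the log2 fold change between the groups, with the spread between animals estimated in the fit of all 20 aortas. They do not give the range of single animals.

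Members and gene lists were chosen with earlier results of these data known. Genes are named if called, if named by the study (Cyp2e1, Cfd, Retn, Egfr), if among the 12 in each direction with the smallest p of protein-coding genes with a fold change over 1.5, over 5 FPM and no overlap (11 lower and 1 higher met this), or if the most abundant, the most different or at an unadjusted p under 0.05 in a list. Others named (Cyp2f2, Myh11, Srebf1, Cidea, Arntl) were chosen after their values were seen. Kidney libraries were not used here. The most different gene of 1 list is not reported here.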

Additional observations from a re-analysis of the deposited data

Results flagged for a closer look

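Within a group of 5, a value was taken as standing apart when its gap to the nearest other exceeded 0.71 of the range. For independent, normally distributed values, chance alone gives about 1 such value in 20 groups tested. Here 23 of 210 groups of values (11%) had one. These groups are FPM of genes chosen with these data known, sums of lists that hold the same genes, and total counts. The 11% can therefore not be set against that chance rate. No explanation was tested.

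Under SFD, R-1 stood apart in its total of 36419598 counts, where the others had 18837908 to 23196910, and in Mfap5 (391 FPM). R-5 stood apart in Mme (24.1 FPM), Thrsp (11 FPM, below the others), Sod3 (935 FPM), Igfbp3 (10.2 FPM), Cdh19 (3.82 FPM), Ryr2 (96.9 FPM) and Acan (30.1 FPM).

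Under HFD, R-10 stood apart in the sums of the insulin and IGF list (3459 FPM) and of the cardiac list (167 FPM), and in Egfr (51.7 FPM), Prdm16 (214 FPM), Srebf2 (180 FPM), Igfbp5 (1545 FPM) and Acan (61.8 FPM). R-7 stood apart in Ciart (46.8 FPM), Per2 (143 FPM) and Hlf (84.5 FPM). R-8 stood apart in Ucp1 (74.5 FPM), R-6 in Insig1 (58.2 FPM), and R-9 in Sphkap (24.4 FPM) and Cd14 (8.05 FPM).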

How the results depend on the processing

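The number of genes called for HFD against SFD in WT aorta was 1. It was 2 with adjusted p alone and 2 with R-12 left out, 6 in the DESeq2 Wald test and 5 in edgeR's exact test, and 0 without a filter on low counts, with a mean of at least 1 FPM required and in the fit of the 10 WT aortas alone. Leaving out single WT libraries gave 0 to 1 genes, Cpxm2 in place of Cyp2e1 without R-3. The cause was not tested. For the difference between the genotypes it was 0 under all alternatives run. No paired analysis was possible because the groups share no replicate numbers.

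Of 79 named genes, 63 kept their direction in all alternatives. Of the 16 others, none of them called, the direction turned with the adipocyte score as covariate for Egfr (-0.0148), Prdm16 (-0.272), Ppara (-0.178), Pecam1 (-0.174), Ryr2 (-0.128), Cytl1 (-0.113) and Krt18 (0.00188), and for Krt18 also without R-1 and R-12 (0.0165). Over fits that left out a single WT library, log2 fold changes ran from -0.0694 to 0.172 for Egfr, -0.0532 to 0.254 for Rbp4, -0.309 to 0.223 for Prdm16, -0.251 to 0.0383 for Srebf2, -0.0192 to 0.115 for Hadha, -0.358 to 0.734 for Ppara and -0.0139 to 0.114 for Atp5b. They ran from -1.01 to 0.127 for Myocd, -0.209 to 0.231 for Pecam1, -0.32 to 0.15 for Errfi1, -0.448 to 0.141 for Igfbp5, -0.694 to 0.0696 for Cdh19, -0.124 to 0.552 for Ryr2, -0.821 to 0.565 for Hba-a1, -0.206 to 0.264 for Cytl1 and -0.221 to 0.0376 for Krt18. Few counts limit Cyp2f2, with 1 to 4 per HFD library, and in R-10 Retn, with 2. A low level also limits Nnt, at 0.705 FPM at most in the WT libraries.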
